A study of Mus musculus with 3 samples.

Results

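Interferon-stimulated genes are the genes that a cell switches on when interferon binds its receptors. The set described here was defined as 37 gene symbols, and 36 of them have a row among the 32285 genes of the deposited matrices. Mx1 was not analysed here. The genes are a list of names, with no threshold on their values in these samples. Within them, 8 genes of the Ifit, Oas and Rsad2 families are called the type I group (Ifit1, Ifit2, Ifit3, Ifit3b, Oasl1, Oasl2, Oas1a and Rsad2), and 4 genes are called the GTPase group (Gbp2, Gbp4, Iigp1 and Igtp).

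The cells came from mesenteric lymph nodes of mice, the nodes that drain the intestine, and their RNA was read cell by cell in droplets with 3' chemistry. Mice received by mouth for 4 weeks either 5 mM citrate buffer, 1 µg ovalbumin (free OVA), or 1 µg ovalbumin in particles made with lyso-phosphatidylserine (LysoPS-OVA). Each feeding is 1 library made from 6 pooled animals. The sources used here give no strain, sex or age. With 1 library per feeding there is no spread between animals, so no test of a feeding was made, and every 95% interval below covers counting error only.

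Levels are unique molecular identifiers (UMIs, each standing for 1 captured transcript) of a gene, scaled to counts per 1000000 UMIs of all genes in the same cells (CPM). Triplets of values run from citrate buffer through free OVA to LysoPS-OVA. Barcodes were assigned to a cell type by fixed marker genes, giving gates of B cells (6688, 6069 and 6455 barcodes), T cells (7020, 3287 and 5665), NK cells (50, 16 and 21), dendritic cells (1140, 1837 and 618), macrophages (115, 158 and 58) and plasmacytoid dendritic cells (24, 11 and 15). The libraries held 96616683, 81559237 and 84089686 UMIs. They shared between 166 and 194 barcodes per pair, at most 0.814% of a library. The labels give the cell type as intestinal cells, but a list of intestinal epithelial genes came to between 1.47 and 5.40 CPM in the B, T and dendritic cell gates. In the dendritic cell gate 85%, 90.5% and 88.0% of barcodes carried little Malat1, a nuclear RNA. The shares were 73.0%, 82.3% and 81.0% in macrophages and 37.5%, 81.8% and 53.3% in plasmacytoid dendritic cells. They were 15.01%, 21.4% and 6.37% in the B cell gate and 6.37%, 14.5% and 4.02% in the T cell gate. B cell transcripts not used for gating came to 4484, 2482 and 1648 CPM in macrophages. In plasmacytoid dendritic cells they came to 2870, 3278 and 3095 CPM. The part of either in the values below was not tested. Between 93.9% and 95.4% of the dendritic cell gate had markers of migratory dendritic cells.

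Type I interferons (the alpha and beta interferons) signal through Janus kinases to a complex that holds STAT2 and IRF9 and binds a DNA element called the interferon-stimulated response element. Interferon gamma, made mainly by T and NK cells, acts mainly through a different element, the gamma-activated sequence. Ifit, Oas and Rsad2 proteins act against viral RNA and replication, whereas the guanylate-binding proteins and immunity-related GTPases attack the membranes around intracellular microbes and respond strongly to interferon gamma. Many of the genes answer to both kinds of interferon.

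The promoters show which of these elements the members carry close to their start. RefSeq promoter sequences (GRCm38.p6) matched 27 of the 36 members, and the 250 bases before the start were searched on both strands. The core of the response element was taken as GAAANNGAAA, and the gamma-activated sequence as TTCNNNGAA. The following stretches of 60 bases, with whole matches in capitals, are shown because they set the type I genes beside Isg15 and beside 2 GTPase genes.
Ifit1: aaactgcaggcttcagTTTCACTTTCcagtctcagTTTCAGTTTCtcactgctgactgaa
Ifit3: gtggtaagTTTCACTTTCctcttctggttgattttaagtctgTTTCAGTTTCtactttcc
Rsad2: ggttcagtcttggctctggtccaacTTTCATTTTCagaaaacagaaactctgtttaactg
Isg15: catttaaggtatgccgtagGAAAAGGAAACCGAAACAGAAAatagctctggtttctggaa
Gbp2: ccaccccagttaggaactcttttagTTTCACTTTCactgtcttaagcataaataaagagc
Igtp: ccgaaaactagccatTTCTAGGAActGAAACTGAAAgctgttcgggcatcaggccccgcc

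The Ifit1 stretch lies at chr19:34640769-34640828 on the plus strand, and its 2 cores begin 104 and 85 bases before the start. Ifit3 lies at chr19:34583365-34583424 on the plus strand, with cores at 156 and 122 bases. Rsad2 lies at chr12:26456538-26456597 on the minus strand, with 1 core at 120 bases. Isg15 lies at chr4:156200856-156200915 on the minus strand and has 3 overlapping cores at 78, 72 and 66 bases. Gbp2 lies at chr3:142620579-142620638 on the plus strand, with 1 core at 59 bases. Igtp lies at chr11:58199496-58199555 on the plus strand and carries a gamma-activated sequence directly before a core at 34 bases, so the 2 elements stand side by side. The core was found in 13 of the 27 matched members, against 2.98% of 32851 promoters, and the gamma-activated sequence in 5 of 27, against 7.02%. Both were found in 3 of 27, against 0.332% of all promoters. Members are counted as genes here, with a match in any of their promoters, whereas the shares of all promoters count each promoter. Ifit2, Irf9, Ifi203 and Trim30a have 2 promoters each, and Ifi203 and Trim30a held the core in only 1 of them. In the type I group 5 of 8 genes held the core, and in the GTPase group both of the 2 matched genes did. Ifit2, Oasl1 and Oasl2 were the type I genes without it, whereas every stretch printed above holds it. The gamma-activated sequence was found in 2 of the 8 type I genes, Ifit2 and Oas1a, and in 1 of the 2 GTPase genes, Igtp. These matches describe letters in a short window, and a promoter without a match may be bound elsewhere.

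The 36 members together made up a similar share of the RNA in B and T cells and a smaller one in dendritic cells. In B cells the sum was 2251, 2399 and 2410 CPM, and in T cells it was 2553, 2538 and 2456 CPM. In dendritic cells it was 1670, 1486 and 1356 CPM. It was 3526, 2504 and 4501 CPM in macrophages and 5740, 13248 and 10341 CPM in plasmacytoid dendritic cells. In NK cells it was 1872 CPM (1694 to 2064), 2299 (1994 to 2637) and 2369 (2118 to 2641), from 403, 204 and 325 UMIs. These NK values lay below those of B and T cells, but in free OVA and LysoPS-OVA the NK interval held both. The sum is carried by a few genes. Ifi27l2a, a small interferon-inducible membrane protein, alone gave between 23.1% and 26.3% of it in B cells and between 26.7% and 30.5% in T cells. Ifi203, of the family of DNA-binding HIN-200 proteins, Ly6a (the surface antigen Sca-1) and Samd9l, an antiviral factor, were the next 3 in B and in T cells. The 4 most abundant members were Gbp2, Ifi27l2a, Bst2 and Isg15 in dendritic cells, Ifi27l2a, Ifi203, Samd9l and Trim30a in NK cells, Ifi27l2a, Bst2, Irf7 and Ly6a in macrophages, and Bst2, Ly6a, Ifi27l2a and Ifi203 in plasmacytoid dendritic cells.

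**Figure D1:**
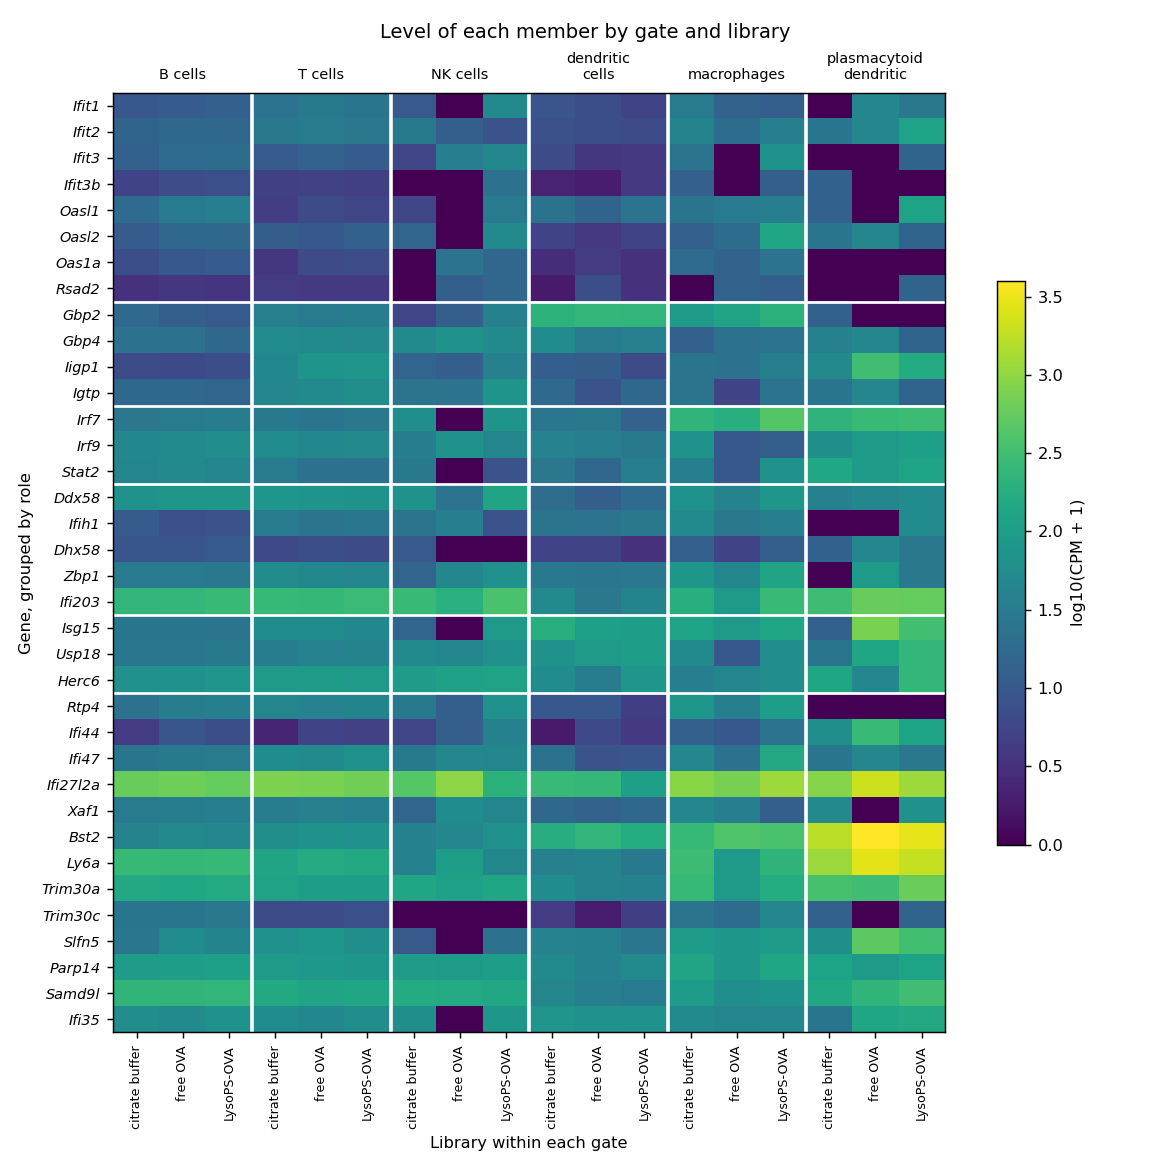
Level of each of the 36 members (rows, grouped by role) in each gate and library (columns), as log10 of CPM plus 1. Bst2 and Ly6a stand out in the plasmacytoid dendritic cell gate, Gbp2 in the dendritic cell gate and less so in macrophages, and Ifi27l2a is high in all 6 gates.

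Among the 6 gates, 8 members were highest in plasmacytoid dendritic cells in all 3 libraries: Bst2, Ly6a, Ifi203, Trim30a, Stat2, Iigp1, Ifi44 and Dhx58. Bst2, which tethers budding virus and is a known surface marker of these cells, reached 1720, 3997 and 2974 CPM there, against at most 401 CPM in any other gate. These levels rest on 142, 89 and 220 UMIs from at most 24 barcodes per library, and Dhx58 and Iigp1 rest on at most 2 and 12 UMIs there. Gbp2 was the single member highest in dendritic cells in every library, at 215, 238 and 230 CPM, against between 9.58 and 36.4 CPM in B and T cells. When plasmacytoid dendritic cells were set aside, Irf7, Oasl1, Bst2 and Slfn5 were highest in macrophages in all 3 libraries. Irf7, the factor that amplifies type I interferon production, was listed there at 225, 185 and 432 CPM, from 39, 42 and 38 UMIs. Bst2 rested there on 45, 91 and 32 UMIs, Slfn5 on 17, 18 and 8, and Oasl1 on 4, 7 and 3. The place of Oasl1 lies within counting error, since its 34.1 CPM (7.03 to 99.7) in macrophages of LysoPS-OVA stood beside 33.3 CPM in B cells. Iigp1 was then highest in T cells, and Samd9l in B cells.

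The type I group was low in every large gate, and its level differed most between libraries in B cells. In B cells the 8 genes summed to 74.6 CPM (71.3 to 78.0), 103 (99.5 to 107) and 112 (109 to 116), so the 3 intervals do not overlap. LysoPS-OVA stood at 1.504 times citrate buffer (1.42 to 1.59) and at 1.09 times free OVA (1.04 to 1.14), and free OVA at 1.38 times citrate buffer (1.31 to 1.46). Both libraries with ovalbumin were thus above citrate buffer. All 8 genes were listed higher in LysoPS-OVA than in citrate buffer, and the counting interval held 1 for Ifit2 and Rsad2.

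Oasl1, an OAS-like protein that restrains Irf7 translation, was the largest component in B cells. It was at 17.0, 28.2 and 33.3 CPM in the 3 libraries, 1.96 times higher in LysoPS-OVA than in citrate buffer (1.75 to 2.20). Ifit3, of the same RNA-binding family as Ifit1, was at 12.2, 17.2 and 17.6 CPM, and Oasl2 at 10.3, 15.3 and 14.8 CPM. For both genes the 2 ovalbumin libraries lay close together and above citrate buffer. Ifit1, which binds viral RNA caps, was at 8.64, 10.1 and 11.5 CPM, and Ifit2, its partner, at 13.6, 14.9 and 15.4 CPM. Ifit3b was at 4.30, 6.04 and 6.70 CPM, and Oas1a, a sensor of double-stranded RNA, at 6.39, 8.67 and 10.4 CPM. Rsad2, the antiviral enzyme viperin, was the lowest, at 2.25, 2.70 and 2.50 CPM. Ifit3 and Ifit3b are near-identical neighbours on chromosome 19, so reads may be divided between them or lost from both.

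The B cell difference was not shared by all cells of a library. Transcripts of Y-linked genes and of Xist, which is made from the inactive X chromosome of female cells, were both present in every library. Of B cell barcodes with only 1 of these kinds, 55.6%, 76.5% and 87.4% carried Y-linked ones. Among barcodes with Y-linked and no Xist UMIs (2199, 2889 and 3996 barcodes), the type I sum was 58.9, 104 and 111 CPM, and LysoPS-OVA was 1.89 times citrate buffer (1.72 to 2.08). Among barcodes with Xist and no Y-linked UMIs (1757, 886 and 574), it was 95.7, 103 and 73.8 CPM, and the ratio was 0.771 (0.657 to 0.902). The direction thus differed between the 2 kinds of barcode of the same libraries. Barcodes with both kinds of transcript or with neither are in neither sum, here and in T cells below. In LysoPS-OVA the whole B cell gate, at 112 CPM, lay above both kinds, so the barcodes left out were higher there.

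Seen within each library, the barcodes with Xist were above those with Y-linked UMIs in citrate buffer, by 1.62 times (1.45 to 1.82), level in free OVA, at 0.987 (0.893 to 1.09), and below in LysoPS-OVA, at 0.664 (0.573 to 0.765). Genes were counted by the side of 1 on which their interval lay, over the 8015 genes that passed a filter on low values in B cells (a mean of at least 10 CPM over the 3 libraries and 30 UMIs in all), among them 29 members and 5 type I genes. In citrate buffer 4 of the 5 type I genes and 23 of the 29 members were higher with Xist, against 9.34% of all genes. In LysoPS-OVA 4 of the 5 and 13 of the 29 were lower with Xist, against 9.53%. Median UMIs per barcode were close within a library, at 3708 and 3618 in citrate buffer, 5497 and 5592.5 in free OVA and 4585 and 4624.5 in LysoPS-OVA, with Y-linked UMIs first. Barcodes with little Malat1 were less alike, at 9.19% and 3.87%, 8.55% and 4.51%, and 3.48% and 2.96% in the same order. The part of this in the levels was not tested. Oasl1 was at 11.5, 29.3 and 34.6 CPM with Y-linked UMIs and at 24.2, 33.2 and 24.4 CPM with Xist. Usp18, the protease that removes ISG15, was at 17.9, 26.2 and 28.6 CPM with Y-linked UMIs and at 34.2, 22.9 and 14.1 CPM with Xist, opposite orders. The cells of a library come from 6 pooled animals, so sex and animal cannot be told apart, and neither can feeding and animal. This split was chosen after seeing the data.

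**Figure D2:**
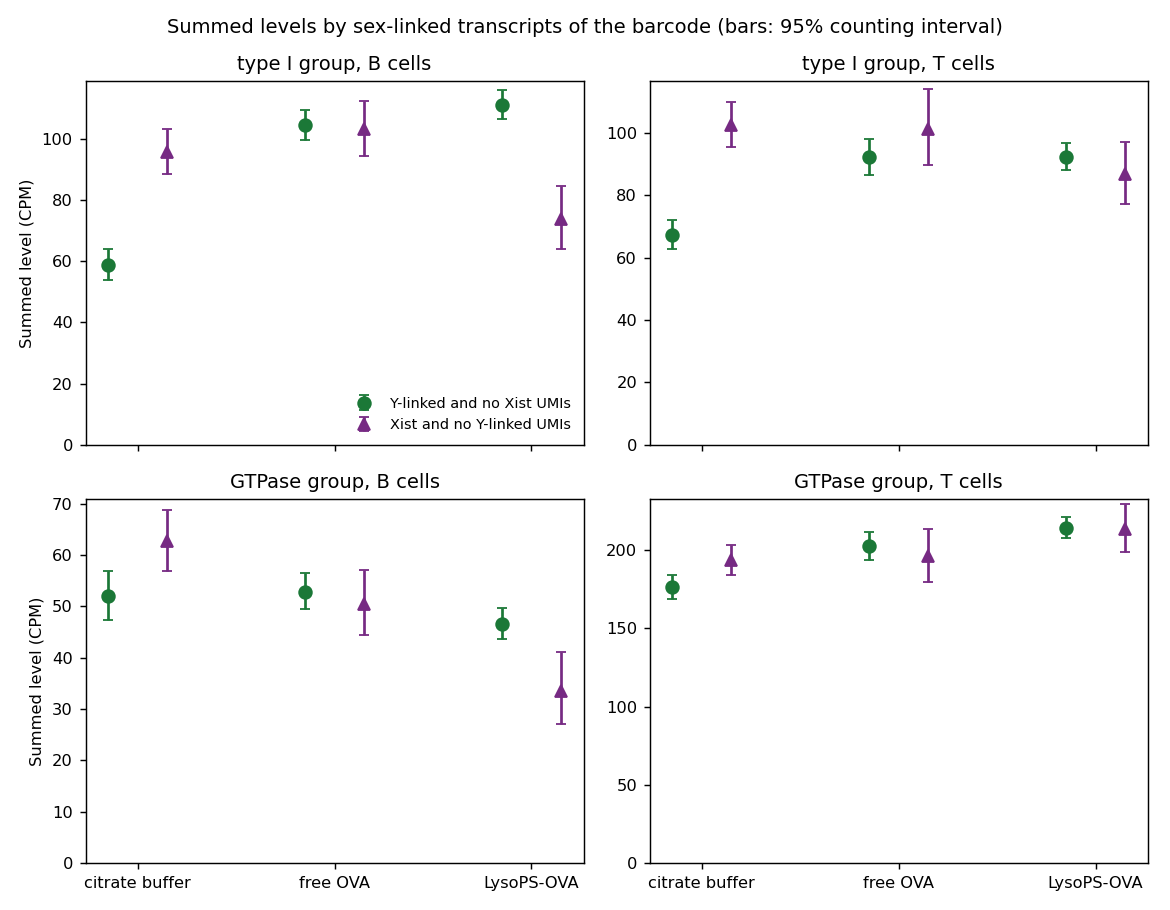
Summed CPM of the type I group (upper) and the GTPase group (lower) in B cells (left) and T cells (right) for barcodes with Y-linked and no Xist UMIs (circles) and with Xist and no Y-linked UMIs (triangles), with 95% counting intervals. The type I sum in B cells runs from 58.9 to 111 CPM for the circles and from 73.8 to 103 CPM for the triangles, in different orders of the 3 libraries.

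Of the 29 members that passed the filter in B cells, the interval of LysoPS-OVA to citrate buffer lay above 1 for 23 and below 1 for 2 with Y-linked UMIs, against 18.5% and 24.6% of all 8015 genes. With Xist it lay above 1 for 1 and below 1 for 14, against 10.1% and 16.8%. For 11 members, Ifit1, Ifit2, Ifit3, Stat2, Ddx58, Usp18, Ifi27l2a, Ly6a, Trim30a, Trim30c and Parp14, the intervals lay on opposite sides, against 1.68% of all genes. Of the 29, Gbp2 alone lay on the same side in both, below 1 at 0.595 (0.477 to 0.743) and 0.468 (0.275 to 0.759), as did 9.15% of all genes. For free OVA to citrate buffer 3 members, Oasl1, Rtp4 and Slfn5, lay above 1 in both kinds of barcode, near the share of all genes, 8.21%. Gbp2 lay below in both, against 13.4%. The part of depth and of the animals pooled in these counts was not tested.

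In T cells the type I group was at 82.0, 96.7 and 90.4 CPM. The ratio was 1.10 (1.04 to 1.17) for LysoPS-OVA to citrate buffer, 1.18 (1.11 to 1.26) for free OVA to citrate buffer and 0.935 (0.881 to 0.993) for LysoPS-OVA to free OVA. These ratios also differed by sex-linked transcripts. With Y-linked UMIs the sum was 67.3, 92.2 and 92.3 CPM and the first ratio 1.37 (1.26 to 1.49). With Xist it was 103, 101 and 86.7 CPM and the ratio 0.846 (0.738 to 0.966). The makeup of the group differed from that in B cells: Ifit2 (26.3, 29.1 and 26.2 CPM) and Ifit1 (22.4, 27.5 and 24.2) led in T cells, whereas Oasl1 was at 3.55, 5.93 and 4.74 CPM. T cell barcodes with Cd4 gave 92.7, 93.2 and 88.0 CPM, and those with Cd8 72.2, 92.8 and 84.8 CPM.

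In dendritic cells the type I group was at 49.5 CPM (41.2 to 59.0), 42.6 (36.7 to 49.2) and 47.5 (36.6 to 60.7), and the intervals overlap. LysoPS-OVA stood at 0.960 times citrate buffer (0.699 to 1.31). Oasl1 was the only one of the 8 genes to pass the filter on low values there, at 20.8, 13.7 and 22.3 CPM. Among barcodes with Malat1 and ribosomal transcripts, which left 134, 150 and 43 barcodes, the ratio of LysoPS-OVA to free OVA was 3.07 in place of 1.11.

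In LysoPS-OVA the 3 small gates had higher type I levels than B, T and dendritic cells, each from few UMIs, whereas in the other libraries NK and plasmacytoid dendritic cells did not all stand above them. Macrophages were at 156 CPM (103 to 227), 106 (67.8 to 157) and 330 (221 to 473), from 27, 24 and 29 UMIs. Of the 29 UMIs in LysoPS-OVA, 12 were of Oasl2. NK cells were at 60.4 CPM (32.2 to 103), 78.9 (31.7 to 163) and 233 (160 to 329), from 13, 7 and 32 UMIs. Plasmacytoid dendritic cells were at 72.7 CPM (26.7 to 158), 135 (27.8 to 394) and 311 (197 to 466), from 6, 3 and 23 UMIs. LysoPS-OVA was the highest of the 3 libraries in each of these gates, and its ratio to citrate buffer was 2.12 (1.21 to 3.71) in macrophages, 3.86 (1.97 to 8.02) in NK cells and 4.28 (1.69 to 12.8) in plasmacytoid dendritic cells. These intervals take each UMI as independent, although several may come from 1 barcode. Over all barcodes of the gate, a type I UMI was found in 13.9%, 10.8% and 13.8% of macrophages. The shares were 18.0%, 12.5% and 47.6% in NK cells and 16.7%, 18.2% and 26.7% in plasmacytoid dendritic cells.

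**Figure D3:**
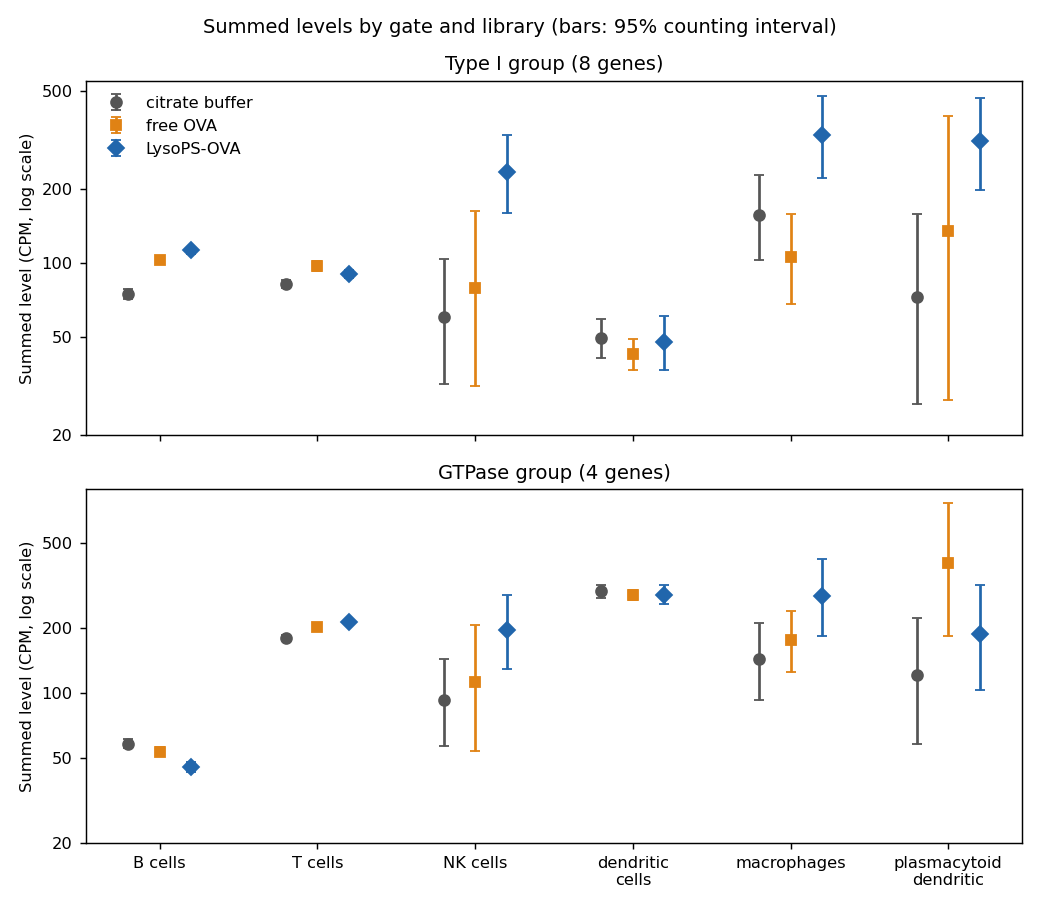
Summed CPM (log scale) of the type I group (upper) and the GTPase group (lower) in 6 gates, with 1 point per library and 95% counting intervals. In B cells the type I points lie at 74.6, 103 and 112 CPM and the GTPase points at 58.3, 53.4 and 45.4, and the 3 rarest gates have wide intervals.

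Single barcodes were compared after thinning each one to 1000 UMIs, which left out 91, 320 and 50 shallower B cell barcodes and 49, 85 and 34 T cell barcodes. A type I UMI was then found in 5.91%, 7.03% and 8.40% of B cells (15.9%, 21.2% and 24.6% before thinning) and in 6.96%, 7.56% and 7.51% of T cells (20.5%, 25.4% and 26.4%). No gate is known to lack these genes, and the lowest of the 3 large gates was the dendritic one, at 4.59%, 3.52% and 3.81%. Before thinning the median barcode held 3359.5, 4920 and 4361 UMIs in B cells, against 1820.5, 1969 and 1667 in dendritic cells. Barcodes with 2 or more different type I genes made up 0.667% (0.485 to 0.894), 1.17% (0.904 to 1.48) and 1.36% (1.09 to 1.67) of B cells and 0.717%, 1.28% and 0.923% of T cells. These few barcodes held 26.1%, 34.8% and 35.7% of the type I UMIs left after thinning in B cells, and 23.2%, 33.4% and 26.4% in T cells. The rest lay in barcodes with a single type I gene.

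Those barcodes carried more GTPase transcripts too. A GTPase UMI was found in 38.0% (24.7 to 52.8), 51.2% (35.1 to 67.1) and 48.1% (34.0 to 62.4) of T cells with 2 or more type I genes, against 14.4%, 15.4% and 15.7% of T cells with none. In B cells the shares were 15.9% (6.64 to 30.1), 14.9% (7.40 to 25.7) and 19.5% (11.8 to 29.4), against 5.54%, 4.92% and 4.12%. The intervals of the barcodes with and without type I genes did not overlap in any of the 3 libraries, in either gate. The number of barcodes with 2 or more type I genes was 44, 67 and 87 among B cells and 50, 41 and 52 among T cells.

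**Figure D4:**
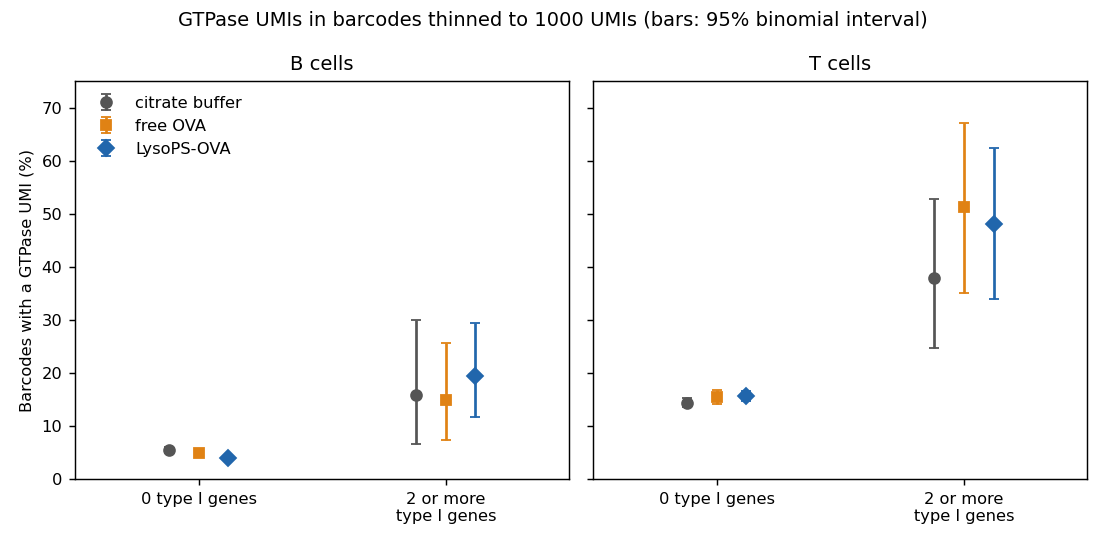
Percent of barcodes, thinned to 1000 UMIs, with a UMI of the GTPase group, for barcodes with 0 and with 2 or more type I genes, in B cells (left) and T cells (right), with 95% binomial intervals. In T cells the share is 14.4% to 15.7% with 0 and 38.0% to 51.2% with 2 or more, and in B cells 4.12% to 5.54% and 14.9% to 19.5%.

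The GTPase group was ordered differently from the type I group across the 3 large gates, lowest in B cells and highest in dendritic cells. It summed to 58.3 CPM (55.3 to 61.3), 53.4 (50.8 to 56.1) and 45.4 (43.1 to 47.9) in B cells, 181 (176 to 186), 204 (198 to 211) and 215 (210 to 220) in T cells, and 297 (276 to 319), 287 (271 to 303) and 287 (259 to 317) in dendritic cells. Gbp2 alone gave 72.5%, 82.9% and 80.1% of the dendritic sum. The other genes of the group had lower means over the 3 libraries in dendritic cells than in T cells. Gbp4 was at 40.7 against 50.4 CPM, Iigp1 at 9.14 against 64.25 and Igtp at 12.9 against 51.9. For each type I UMI there were 0.781, 0.518 and 0.405 GTPase UMIs in B cells, 2.21, 2.11 and 2.38 in T cells, and 6.01, 6.73 and 6.05 in dendritic cells. Relative to citrate buffer, LysoPS-OVA was at 0.780 (0.725 to 0.839) in B cells, 1.19 (1.14 to 1.23) in T cells and 0.967 in dendritic cells, and free OVA was at 0.917, 1.13 and 0.965. B and T cells thus lay on opposite sides of 1, and the difference between the gates was not tested. Under TMM scaling, which is computed from the bulk of genes, the dendritic ratio of free OVA to citrate buffer was 1.24 and that of LysoPS-OVA to free OVA 0.822 in place of 1.001.

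In T cells the largest difference of the group was in Iigp1, an immunity-related GTPase that disrupts the vacuoles of intracellular parasites. It was at 46.3, 71.6 and 74.8 CPM, 1.61 times higher in LysoPS-OVA than in citrate buffer (1.51 to 1.73) and 1.55 times higher in free OVA (1.43 to 1.67). Both ovalbumin libraries were again close together. The interval stayed above 1 with Y-linked UMIs (40.3, 70.1 and 72.6 CPM) and with Xist (59.4, 72.8 and 82.7 CPM). Igtp, a regulator of the same GTPase family, was at 44.8, 51.9 and 59.0 CPM. Gbp4 was at 53.6, 49.6 and 48.1 CPM and Gbp2 at 36.4, 31.0 and 33.0 CPM, both slightly lower in the ovalbumin libraries. By subset, the group was at 186, 180 and 204 CPM in T cells with Cd4 and at 168, 220 and 220 CPM in those with Cd8. Transcripts of B cells in the T cell gate, from genes not used for gating, came to 874, 785 and 555 CPM, and their part in these ratios was not tested.

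In B cells Gbp2, a guanylate-binding protein of pathogen vacuoles, was at 16.1, 11.2 and 9.58 CPM, 0.595 times in LysoPS-OVA against citrate buffer (0.511 to 0.693). Gbp4 was at 21.3, 21.5 and 15.3 CPM, lower in LysoPS-OVA than in both other libraries. Igtp was at 15.1, 15.4 and 14.1 CPM and Iigp1 at 5.72, 5.31 and 6.44 CPM, with no order that exceeds counting error against citrate buffer. Foreign T cell transcripts came to 313, 197 and 252 CPM in the B cell gate. The GTPase sum was 51.9, 52.9 and 46.6 CPM with Y-linked UMIs and 62.6, 50.4 and 33.5 CPM with Xist, so LysoPS-OVA relative to citrate buffer was 0.898 (0.803 to 1.01) and 0.535 (0.424 to 0.670). In dendritic cells Gbp2 made up most of the group, and Gbp4 was at 55.1, 30.5 and 36.4 CPM.

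The 3 transcription factors of the set were modestly expressed in lymphocytes. Irf7 was at 25.9, 28.9 and 32.7 CPM in B cells and at 28.0, 23.9 and 26.8 CPM in T cells. Irf9, the DNA-binding part of the type I complex, was at 46.7, 52.0 and 57.0 CPM in B cells and at 53.1, 47.6 and 48.9 CPM in T cells. Stat2, its partner, was at 30.6, 22.1 and 21.9 CPM in T cells, 0.717 times in LysoPS-OVA against citrate buffer (0.647 to 0.793), and lay below 1 in both kinds of barcode. In dendritic cells Irf7 was at 25.1, 27.1 and 12.6 CPM, with 17 UMIs in LysoPS-OVA, and Stat2 at 25.5, 15.7 and 33.4 CPM.

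Of the 5 nucleic acid sensors, Ifi203 was the most abundant, at 236, 241 and 270 CPM in B cells, 257, 249 and 284 in T cells and 51.9, 26.2 and 40.8 in dendritic cells. It was higher in LysoPS-OVA than in free OVA in all 3 gates, at 1.12, 1.14 and 1.56 times, with intervals above 1. Of all genes that passed the filter, 59.3%, 48.3% and 68.9% also lay higher in this comparison. In dendritic cells 12.8% of them were past 1.5-fold higher after 10 CPM was added. Ddx58, the RNA sensor RIG-I, was at 70.6, 79.0 and 78.8 CPM in B cells and at 76.0, 71.8 and 70.8 CPM in T cells. Ifih1, the sensor MDA5 of long double-stranded RNA, was at 10.0, 6.70 and 7.37 CPM in B cells and at 29.0, 23.2 and 24.8 CPM in T cells. Zbp1, a sensor of Z-form nucleic acid that triggers cell death, was at 54.3, 47.2 and 43.3 CPM in T cells. Dhx58, the regulator LGP2, stayed under 10 CPM in B, T and dendritic cells.

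The 3 genes of the ISG15 pathway summed to 312, 224 and 281 CPM in dendritic cells and to 170, 943 and 811 CPM in plasmacytoid dendritic cells, where LysoPS-OVA was 4.78 times citrate buffer (2.64 to 9.27). The plasmacytoid sums rest on 14, 21 and 60 UMIs. The 2 genes that passed the filter there did not move alike. After 10 CPM was added, their log2 ratios to citrate buffer were 3.92 and 0.823 for LysoPS-OVA, and 5.13 and -1.38 for free OVA. Isg15, the ubiquitin-like modifier, was at 187, 107 and 102 CPM in dendritic cells, so that LysoPS-OVA was 0.544 times (0.446 to 0.659) and free OVA 0.571 times (0.501 to 0.651) citrate buffer. It was at 24.2, 24.5 and 23.0 CPM in B cells and at 56.0, 54.9 and 47.5 CPM in T cells. Usp18 was at 69.4, 84.6 and 104 CPM in dendritic cells, the reverse order, and LysoPS-OVA was 1.497 times citrate buffer (1.19 to 1.88). The ratio was 1.13 in B cells and 1.21 in T cells, with intervals above 1. With Y-linked UMIs the interval of Usp18 also lay above 1 in B and T cells, at 1.60 and 1.45 times, but with Xist it lay below 1 in both, at 0.413 and 0.793. Herc6, the main ISG15 ligase of the mouse, was at 55.9, 32.1 and 75.7 CPM in dendritic cells and between 65.8 and 91.9 CPM in B and T cells.

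Of the other effectors, Slfn5, a schlafen protein, gave the largest B cell difference among the 29 members that passed the filter, after 10 CPM was added to both levels. It was at 24.9, 56.3 and 41.1 CPM, 2.26 times higher in free OVA than in citrate buffer (2.06 to 2.48), and the order of the libraries differed from that of the type I group. The ratio was 2.81 (2.40 to 3.31) with Y-linked UMIs and 1.71 (1.42 to 2.07) with Xist. In T cells Slfn5 was at 65.4, 76.7 and 58.8 CPM. Rtp4, a chaperone that binds viral RNA, was at 21.9, 31.4 and 34.8 CPM in B cells and flat in T cells, at 42.2, 38.9 and 40.5 CPM. Ifi44 was low, at 3.43, 8.11 and 6.31 CPM in B cells and 1.36, 4.30 and 4.08 in T cells, lowest in citrate buffer in both.

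Ifi27l2a was at 584, 630 and 557 CPM in B cells, 778, 759 and 656 in T cells and 271, 247 and 107 in dendritic cells. LysoPS-OVA was the lowest library in each of these gates, and in dendritic cells it was 0.395 times citrate buffer (0.328 to 0.474). In B cells the ratio to citrate buffer was 0.881 (0.853 to 0.911) with Y-linked UMIs and 1.28 (1.21 to 1.36) with Xist. Ly6a was at 257, 246 and 256 CPM in B cells and at 124, 165 and 151 CPM in T cells. Bst2 was at 176, 230 and 170 CPM in dendritic cells and was higher in free OVA than in citrate buffer in all 3 large gates, at 1.20, 1.16 and 1.31 times in B, T and dendritic cells. With Y-linked UMIs the ratio was 1.42 (1.24 to 1.62) in B cells and 1.34 (1.21 to 1.496) in T cells, and with Xist 1.10 (0.928 to 1.30) and 0.899 (0.750 to 1.07). Ifi47, another immunity-related GTPase, was at 21.5, 7.29 and 8.17 CPM in dendritic cells and at 56.2, 49.6 and 64.0 CPM in T cells.

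Samd9l was at 227, 227 and 238 CPM in B cells and at 153, 127 and 132 CPM in T cells. Trim30a, a TRIM protein that dampens NF-kB signalling, was at 147, 145 and 156 CPM in B cells and at 118, 100 and 101 CPM in T cells. Its neighbour Trim30c was at 23.9, 24.3 and 26.9 CPM in B cells and under 10 CPM in T cells, and these paralogs may share reads. Parp14, an ADP-ribosyltransferase, was at 95.5, 101 and 108 CPM in B cells. Ifi35 was at 58.1, 52.3 and 67.6 CPM and Xaf1, a promoter of apoptosis, at 28.7, 33.0 and 35.1 CPM in B cells.

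Each comparison was then set against all genes that passed the same filter (a mean of at least 10 CPM over the 3 libraries and 30 UMIs in all), counting genes past 1.5-fold after 10 CPM was added to both levels. In B cells 29 members passed. For LysoPS-OVA to citrate buffer 1 was past 1.5-fold higher (Oasl1) and 0 lower, against 0.861% and 1.01% of 8015 genes. For free OVA to citrate buffer 1 was higher (Slfn5) and 0 lower, against 0.586% and 0.911%. For LysoPS-OVA to free OVA it was 0 in both directions, against 0.187% and 0.337%. The median log2 ratio of the members was 0.15, 0.08 and 0.06 in these 3 comparisons, against -0.02, -0.04 and 0.02 over all genes, and 22, 24 and 18 of the 29 lay above 0, against 44.7%, 39.7% and 59.3% of all genes. The highest 3 for LysoPS-OVA to citrate buffer were Oasl1 (0.68), Slfn5 (0.55) and Rtp4 (0.49) on the log2 scale, and the lowest Gbp2 (-0.41), Gbp4 (-0.31) and Ifi27l2a (-0.07). For free OVA they were Slfn5 (0.93), Oasl1 (0.50) and Rtp4 (0.38), and Gbp2 (-0.30), Ifi35 (-0.13) and Ly6a (-0.06). Between the ovalbumin libraries they were Ifi35 (0.32), Oasl1 (0.18) and Ifi203 (0.15), and Slfn5 (-0.38), Gbp4 (-0.32) and Ifi27l2a (-0.17).

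In T cells 29 members passed, of 7950 genes. Past 1.5-fold were 1 higher (Iigp1) and 0 lower for LysoPS-OVA to citrate buffer, against 0.541% and 1.23%. It was 0 in both directions for free OVA to citrate buffer, against 0.478% and 0.956%, and for LysoPS-OVA to free OVA, against 0.126% and 0.264%. The median log2 ratio was -0.05, -0.07 and -0.01, against -0.09, -0.08 and -0.00 over all genes, and 13, 11 and 14 of the 29 lay above 0, against 27.0%, 27.6% and 48.3% of all genes. The highest 3 for LysoPS-OVA to citrate buffer were Iigp1 (0.59), Igtp (0.33) and Ly6a (0.27) on the log2 scale, and the lowest Stat2 (-0.35), Zbp1 (-0.27) and Ifi27l2a (-0.24). For free OVA they were Iigp1 (0.53), Ly6a (0.38) and Ifit3 (0.23), and Stat2 (-0.34), Samd9l (-0.25) and Ifih1 (-0.23). Between the ovalbumin libraries they were Ifi47 (0.31), Ifi35 (0.23) and Oasl2 (0.22), and Slfn5 (-0.34), Ifi27l2a (-0.21) and Isg15 (-0.17). For LysoPS-OVA to citrate buffer, the intervals of Ly6a, Usp18 and Herc6 lay on opposite sides of 1 with Y-linked UMIs and with Xist. Ly6a was at 98.2, 166 and 156 CPM with Y-linked UMIs and at 154, 165 and 110 CPM with Xist. Iigp1 and Ifi203 lay above 1 in both kinds of barcode, and Stat2, Zbp1 and Samd9l below. The share of all genes was not counted for this split of T cells.

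In dendritic cells 24 members passed, of 6896 genes. For LysoPS-OVA to citrate buffer 0 were past 1.5-fold higher and 4 lower (Ifi27l2a, Isg15, Ifi47 and Irf7), against 3.87% and 4.77%. For free OVA to citrate buffer 0 were higher and 5 lower (Ifi47, Ifi203, Isg15, Gbp4 and Herc6), against 0.783% and 11.2%. For LysoPS-OVA to free OVA 2 were higher (Herc6 and Stat2) and 2 lower (Ifi27l2a and Irf7), against 12.8% and 0.856%. The median log2 ratio was -0.07, -0.23 and 0.09, against -0.07, -0.25 and 0.14 over all genes. Highest were Usp18 (0.52), Herc6 (0.38) and Stat2 (0.29) for LysoPS-OVA to citrate buffer, Bst2 (0.37), Usp18 (0.25) and Gbp2 (0.14) for free OVA to citrate buffer, and Herc6 (1.02), Stat2 (0.75) and Ifi203 (0.49) between the ovalbumin libraries. Under TMM scaling the shares of all genes became 4.82% and 3.05%, 3.89% and 2.11%, and 5.84% and 3.63%, and the members past 1.5-fold 1 and 3, 1 and 1, and 1 and 5. The comparisons share libraries, so they are not independent of one another.

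**Figure D5:**
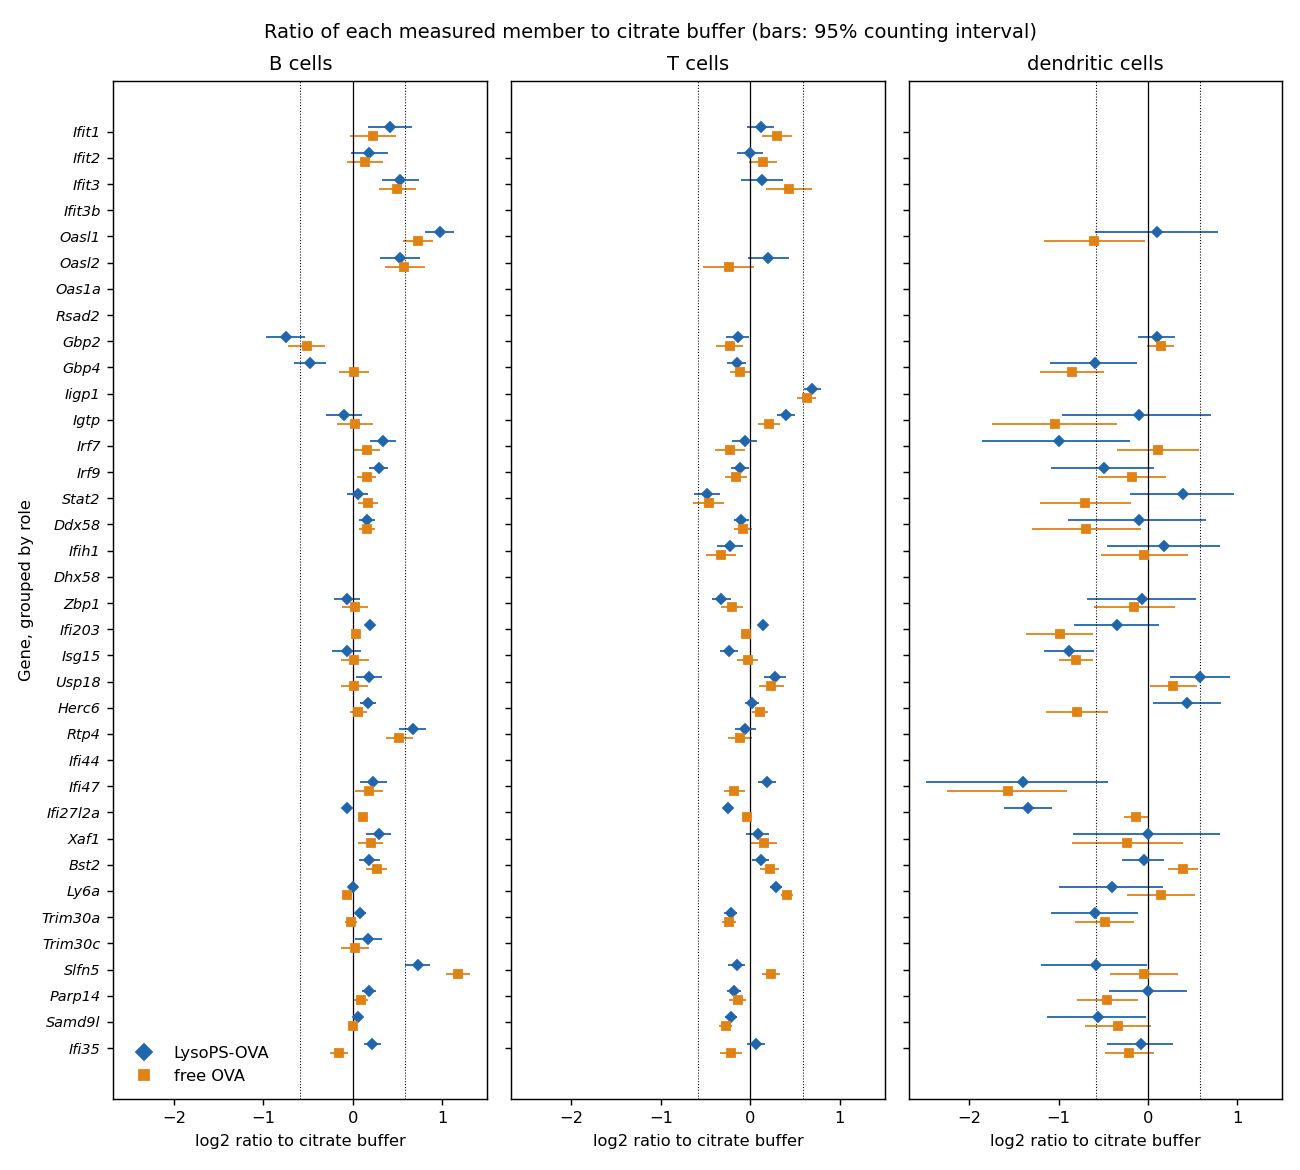
Log2 ratio of CPM, with no pseudocount, of LysoPS-OVA (diamonds) and free OVA (squares) to citrate buffer for each member that passed the filter, in B cells, T cells and dendritic cells, with 95% counting intervals and dotted lines at 1.5-fold. Oasl1, Rtp4 and Slfn5 lie to the right in B cells, Iigp1 in T cells, and Isg15 and Ifi47 to the left in dendritic cells.

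In B, T and dendritic cells the genes around the pathway gave few values past 1.5-fold. In NK cells, macrophages and plasmacytoid dendritic cells most measured receptors were past it in some comparisons. Those values rest on few UMIs, and the share of all genes was not counted in these gates. Of 20 interferon genes, 17 had no UMI in any of the 6 gates, and 0 passed the filter. A count of 0 allows up to 0.118 CPM in B cells of citrate buffer but up to 135 CPM in the plasmacytoid dendritic cells of free OVA, where alpha interferons could not be detected at this depth. Ifng, the interferon gamma gene, had 18, 14 and 28 UMIs in T cells. Of 6 receptor genes 5 passed in each large gate. Ifnar2, a chain of the type I receptor, was at 55.0, 65.6 and 70.9 CPM in B cells and was the only receptor of the large gates past 1.5-fold, in dendritic cells for LysoPS-OVA to free OVA (56.5 and 92.8 CPM). Of 8 kinases and factors, Jak1 was the most abundant in lymphocytes, at 480, 445 and 457 CPM in B cells and 672, 586 and 601 in T cells. Irf8, at 41.7, 22.8 and 21.9 CPM in T cells, was past 1.5-fold lower in both ovalbumin libraries, while foreign B cell transcripts were also lowest there in LysoPS-OVA, and their part in it was not tested. Jak2 was past 1.5-fold higher in dendritic cells of LysoPS-OVA, at 229, 214 and 350 CPM. Of 7 inhibitors, 4, 6 and 5 passed the filter in B, T and dendritic cells. Of 9 upstream sensors and adaptors, 7 had a row, and 3, 2 and 2 passed. Of the genes that passed, 0 were past 1.5-fold in any comparison. The shares of all genes are those given above for each gate and comparison.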

How the data were processed

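Raw UMI counts per gene and barcode were used as the authors deposited them, with Cell Ranger 7.2.0 and the build mm10 named in the submitters' processing notes. The annotation and any counting of intronic reads are not given in the sources used here. Barcodes needed at least 300 genes and no more than 10% of UMIs from mitochondria, and doublets called by Scrublet (scanpy 1.11.5) were removed: 17.0% (citrate buffer), 5.92% (free OVA) and 7.49% (LysoPS-OVA). This left 21871, 21949 and 16025 barcodes. A barcode entered a gate with at least 3 UMIs from at least 2 different markers and 3 times as many as for any of the other 8 lists. The 6 gates described used these markers: Cd79a, Cd79b, Ms4a1, Pax5, Fcer2a and others for B cells, Cd3d, Cd3e, Cd3g, Trac, Cd6 and Themis for T cells, Ncr1 and killer-cell receptors for NK cells, Flt3, Zbtb46, Fscn1, Ccl22, Clec9a, Xcr1 and others for dendritic cells, C1q genes, Adgre1, Mertk and Csf1r for macrophages, and Siglech, Klk1 and Ccr9 for plasmacytoid dendritic cells.

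Counts were summed per gate and library. Intervals are exact Poisson for CPM, exact binomial (Clopper-Pearson) for shares and conditional binomial for ratios, at 95%. The ratio script was tested on simulated data. Comparisons ran over all genes. The members and lists were chosen with earlier results of these data known. Members named per comparison are the 3 highest and the 3 lowest by ratio, and per gate the most abundant, and every member could be described. Alternatives were a stricter gate, doublets kept, barcodes with Malat1 and ribosomal transcripts only, TMM scaling (edgeR 4.0.16), no filter, a pseudocount of 1 CPM and, chosen after seeing the data, barcodes with only Xist or only Y-linked UMIs (Ddx3y, Eif2s3y, Kdm5d and Uty) and the T and dendritic cell subsets. Gene positions and promoters came from GENCODE and RefSeq tables of GRCm38. Python 3.11.15 and R 4.3.3 were used.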

Additional observations from a re-analysis of the deposited data

Results flagged for a closer look

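The summed levels of the members lay on opposite sides of 1 in B and T cells in 4 cases, with counting intervals that exclude 1 in both gates. For the GTPase group, LysoPS-OVA to citrate buffer was 0.780 in B cells and 1.19 in T cells, free OVA to citrate buffer was 0.917 and 1.13, and LysoPS-OVA to free OVA was 0.851 and 1.05. For the type I group, LysoPS-OVA to free OVA was 1.09 in B cells and 0.935 in T cells. The difference between the gates was not tested, because each feeding is 1 library. Not all of these intervals stayed off 1 under other processing. The GTPase ratio of free OVA to citrate buffer in B cells held 1 under TMM scaling (0.905 to 1.04), the stricter gate (0.894 to 1.05) and barcodes with Malat1 and ribosomal transcripts (0.901 to 1.06). That of LysoPS-OVA to free OVA in T cells held 1 under the stricter gate (0.977 to 1.08) and in those barcodes (0.987 to 1.07). The type I ratio of LysoPS-OVA to free OVA held 1 in B cells in those barcodes (0.972 to 1.08) and in T cells under TMM scaling (0.902 to 1.02). The GTPase ratio of LysoPS-OVA to citrate buffer kept both intervals off 1 under these 3 alternatives and with doublets kept, but with Y-linked UMIs alone its B cell interval ran from 0.803 to 1.01. In barcodes with Xist the type I ratio of LysoPS-OVA to free OVA was 0.716 in B cells and 0.856 in T cells, on the same side of 1.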

How the results depend on the processing

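With 1 library per feeding no spread between animals is known, and gates of NK cells, macrophages and plasmacytoid dendritic cells rest on few UMIs. No paired analysis was possible because each group has 1 library. The 2 group sums and the counts past 1.5-fold were recomputed in B, T and dendritic cells. A sum is taken as unmoved inside its own counting interval and a count within 1.5 times. By that measure keeping doublets moved 0 of 27 values and dropping the filter 0 of 9, although the dendritic count went from 4 to 5 (LysoPS-OVA to citrate buffer, doublets kept) and from 5 to 6 (free OVA to citrate buffer, no filter). The causes of the moves below were not tested.

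Only barcodes with Xist gave, for LysoPS-OVA to citrate buffer, free OVA to citrate buffer and LysoPS-OVA to free OVA, type I ratios of 0.771, 1.08 and 0.716 in B cells and 0.846, 0.988 and 0.856 in T cells, and GTPase ratios of 0.535, 0.805 and 0.665 in B cells. In T cells the first 2 GTPase ratios were 1.10 and 1.01. Only barcodes with Y-linked UMIs gave type I ratios of 1.89 and 1.77 against citrate buffer in B cells and 1.37, 1.37 and 1.001 in T cells, and GTPase ratios of 0.898 and 1.02 in B cells.

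TMM scaling gave type I ratios of free OVA to citrate buffer of 1.47 in B cells, 1.27 in T cells and 1.11 in dendritic cells, and of LysoPS-OVA to citrate buffer of 1.21 in T cells. It gave GTPase ratios of 1.31 and 1.21 against citrate buffer in T cells, and in dendritic cells 1.24 for free OVA to citrate buffer and 0.822 for LysoPS-OVA to free OVA. Members past 1.5-fold were then 2 in B cells (LysoPS-OVA to citrate buffer; all genes 1.31% higher and 0.849% lower), and for free OVA to citrate buffer 1 in T cells (0.730% and 0.642%) and 2 in dendritic cells (3.89% and 2.11%). TMM moved the median log2 ratio of all genes in dendritic cells from -0.25 to 0.03 for free OVA to citrate buffer and from 0.14 to -0.06 for LysoPS-OVA to free OVA.

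Barcodes with Malat1 and ribosomal transcripts gave dendritic type I ratios of 1.41, 0.459 and 3.07 and GTPase ratios of 1.22, 0.842 and 1.45, a B cell type I ratio of LysoPS-OVA to free OVA of 1.02, and 2 (B cells, LysoPS-OVA to citrate buffer; all genes 0.750% higher and 0.787% lower) and 1 (T cells, free OVA to citrate buffer; 0.658% and 0.670%) members past 1.5-fold. The stricter gate gave a T cell type I ratio of LysoPS-OVA to citrate buffer of 1.03 and 2, 1 and 7 members past 1.5-fold in B cells (all genes 0.873% higher and 0.886% lower), T cells (free OVA to citrate buffer; 0.531% and 0.809%) and dendritic cells (8.66% and 9.44%). A pseudocount of 1 CPM gave 4 (3 higher; all genes 1.93% higher and 1.95% lower) and 2 (1.42% and 1.90%) in B cells for LysoPS-OVA and free OVA to citrate buffer. It gave 1 in T cells (0.969% and 2.16%) and 8, all lower, in dendritic cells (1.54% and 24.1%) for free OVA to citrate buffer, and 7, of them 5 higher, in dendritic cells for LysoPS-OVA to free OVA (21.9% and 2.54%).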
